A study of Mus musculus with 8 samples.

Results

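The genes described here are the Wnt ligands, their frizzled and Lrp receptors, the secreted proteins that modulate them, and a small set of intracellular genes of the same pathway. A probe was included when its gene name in the scanner files was Wnt, Fzd, Sfrp, Dkk or Rspo followed by a digit, or was Lrp5, Lrp6, Axin2, Wif1, Frzb, Lef1, Tcf7, Tcf7l1, Tcf7l2, Nkd1, Nkd2, Porcn or Wls. This gave 68 of the 55681 non-control probes and 53 of the 24716 named genes on the array. RNA came from the striatum of male mice aged 4 weeks, from 4 R6/2 samples and 4 wild-type (WT) samples, each on its own 1-colour array. R6/2 mice carry a transgene made of the first exon of human huntingtin with an expanded CAG repeat, and are a model of Huntington's disease. The comparison addresses how striatal expression differs between R6/2 and WT mice at this age. Separate animals are not stated for the 4 replicates of a genotype, and p-values here reflect no more than how far the replicates differ, possibly for technical reasons.

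Wnt proteins are secreted lipid-modified signals that bind frizzled receptors together with the co-receptors Lrp5 or Lrp6. In the canonical branch this stops the destruction of β-catenin, which then acts in the nucleus with the transcription factors of the Tcf and Lef family, and other branches act through cell polarity or calcium. In the brain the pathway is known for patterning of the forebrain, growth of axons and synapses, and formation of the blood-brain barrier.

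The results turn on Dkk2 and Wnt8b, which were called lower in R6/2, and on a further ligand, Wnt4, which was not called but had no overlap between genotypes on either of its probes. The stretches of RNA that these probes read are therefore given, 5′ to 3′, with positions on mouse build mm9 from the scanner files. Exon and UTR were not assigned, because no annotation of that build was used. For 3 probes the first 30 of 60 bases are shown and for 2 the whole probe. The Dkk2 probe lies at chr3:131842357-131842416. The Wnt8b probe that was tested lies at chr19:44588615-44588674, and a second Wnt8b probe at chr19:44585759-44585818. The brighter Wnt4 probe lies at chr4:136855342-136855401, and the other spans an intron at chr4:136851690-136852258.
Dkk2, first 30 bases: tcagagtgatgatgtcatcagaagtttata
Wnt8b, tested probe, first 30 bases: gtggagacaactaacaacacacaagcatcc
Wnt8b, second probe: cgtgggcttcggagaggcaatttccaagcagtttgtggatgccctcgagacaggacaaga
Wnt4, brighter probe, first 30 bases: tatgaggctccttggcattgtgacatcccc
Wnt4, second probe: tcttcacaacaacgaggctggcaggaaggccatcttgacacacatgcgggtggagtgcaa

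Between 62.4% and 68.5% of spots were well above background on each array, 0 spots were saturated, and arrays of a genotype correlated at 0.983 to 0.992. All 8 arrays shared 1 slide and 1 scan, but WT filled its first row and R6/2 its second, so row and genotype cannot be told apart. The 10 markers of striatal projection neurons were all measured, and their summed level (relative to the 75th percentile of each array) was 659 to 753 on WT and 355 to 479 on R6/2 arrays. Of these markers 5 were called lower. Beside the counts of this and the other marker lists stand the shares over all tested genes. Of these, 1.46% were called lower and 0.47% higher, and 18.9% had an unadjusted p under 0.05 by limma. Of 13 lists of cell type markers, the summed level was lower in R6/2 without overlap for 5 and higher for 1. Besides projection neurons, the lower ones were thalamus and habenula (described further on), striatal interneurons (88.5 to 105 on WT, 66.5 to 73.8 on R6/2 arrays, 1 of 8 called lower), astrocytes (274 to 304 against 241 to 258, 0 of 8 called, 2 at an unadjusted p under 0.05) and microglia (129.5 to 151.5 against 112.3 to 128.7, 0 of 8 called, 1 at an unadjusted p under 0.05). Progenitor and neuroblast markers were the higher list (5.24 to 5.64 against 6.02 to 7.43, 2 of 8 called higher), and of 8 ependymal markers 2 were called higher. A sum is weighted to the brightest genes of a list. By mean log2 level the genotypes overlapped for astrocytes (2.91 to 3.14 on WT, 2.89 to 3.05 on R6/2 arrays). They also overlapped for microglia (2.45 to 2.86 against 2.44 to 2.51) and progenitors (-0.87 to -0.68 against -0.73 to -0.36). The ependymal mean was higher in R6/2 without overlap (-2.56 to -1.83 against -1.81 to -1.52). The RNA is from whole tissue, so fewer cells of a type and less RNA per cell cannot be told apart, and the part of these cells or of slide position in the results below was not tested.

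Dkk2, a secreted protein that binds Lrp5 and Lrp6, was called lower in R6/2 striatum. So was Wnt8b, a ligand known from the developing hippocampal region and dorsal forebrain, and no Wnt gene was called higher. Of this pair only Dkk2 was above background in both genotypes: Wnt8b was well above background on WT arrays alone, passed the filter through them and so had to differ. Of the 53 genes, 47 (59 probes) rose well above background on 4 or more arrays and were tested. With limma, 2 were called lower and 0 higher at a Benjamini-Hochberg adjusted p under 0.05 over all 35121 tested probes. Of all 17883 tested genes 1.46% were called lower and 0.47% higher, in all 1.93%. By probe, 2 of the 59 were called, against 1.51% of all tested probes. With medians in place of 75th percentiles as the scaling, 61.4% of all called genes were lower, against 75.7% here, and the same 2 Wnt genes were called. An unadjusted p under 0.05 was seen for 11 Wnt genes with a negative and 1 with a positive difference, in all 12, and 18.9% of all genes had one. The unpaired test that the authors' table names, run on the same values, called 0 of the 47.

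Negative differences (R6/2 minus WT, log2) were seen for 36 of the 47 genes and positive ones for 11, with a median of -0.13. Over all tested genes 46.2% were negative and the median was 0.02. With the median as scaling, 30 of the 47 Wnt genes were negative and their median was -0.05. All 4 R6/2 arrays lay below all 4 WT arrays for 8 of the 47, and above them for 0. These 8, with Wnt8b among them by way of the filter, were Dkk2, Wnt8b, Wnt4, Tcf7, Wnt5b, Wnt9a, Wnt7a and Lrp6, and of all genes 6.76% were separated in this way downward and 7.62% upward, 14.4% in all.

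**Figure D1:**
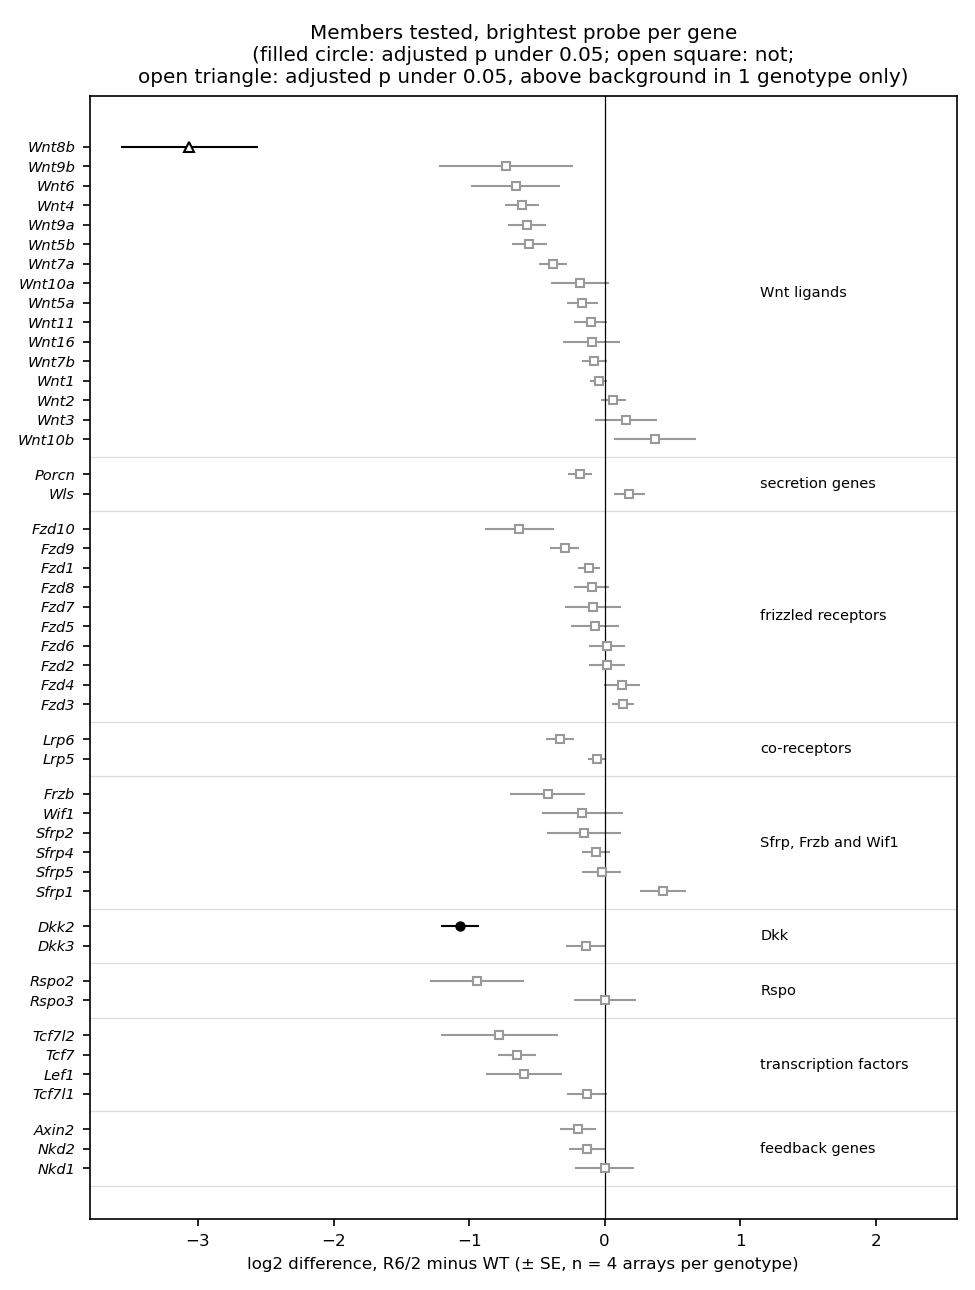
Log2 difference, R6/2 minus WT, of the 47 tested Wnt genes (points, brightest probe of each gene; bars, SE from limma, 4 arrays per genotype), grouped by role. The filled circle marks Dkk2 (-1.07). The triangle marks the fitted value of Wnt8b (-3.07), which was not above background in R6/2 and has only a bound there (at least 3.97-fold lower), and the open squares run from Rspo2 (-0.94) to Sfrp1 (0.43).

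Of the 19 Wnt ligands, 16 were tested. In 13 the difference was negative and in 3 positive (median -0.17), 1 was called lower and 0 higher, and 5 had no overlap between genotypes. Of all tested genes 1.46% were called lower and 6.76% had no overlap downward. The 1 called, also among the 5, was Wnt8b, which passed the filter through WT arrays alone and so had to differ. Wnt8b read -2.79, -3.27, -3.32 and -3.89 on WT 1 to 4 and -7.22, -7.29, -6.01 and -5.02 on R6/2 1 to 4, in log2 units relative to the 75th percentile of each array. The genotypes stood clear of each other, and the R6/2 arrays were spread more widely (SD 1.08) than the WT arrays (SD 0.45). The probe was well above background on all 4 WT arrays and on 0 R6/2 arrays, so it has only a bound in R6/2. Set against the lowest signal well above background on each R6/2 array, or the probe's own value where higher, Wnt8b was at least 3.97-fold lower in R6/2. The bound makes no allowance for sampling error. The fitted difference was -3.07 ± 0.51 (SE, n = 4 per genotype; limma adjusted p = 0.0337).

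The call of Wnt8b did not hold with the replicate number as a block (limma adjusted p = 0.0821), and normexp background correction reduced the difference to -0.69 with the call kept. It held when R6/2 4 was left out (limma adjusted p = 0.0257) and was lost without any other single array, with 0.0960 without WT 2 as the highest adjusted p. The second Wnt8b probe was not tested. It read -6.03, -2.97, -7.36 and -7.75 on WT 1 to 4 and -7.49, -7.58, -7.66 and -4.73 on R6/2 1 to 4. It was well above background on 1 array of each genotype, so the lower level of Wnt8b in R6/2 rests on 1 probe.

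Wnt4, a ligand best known from the development of the kidney and the ovary, was not called. It read 0.41, 0.48, 0.13 and 0.33 on WT 1 to 4 and -0.24, -0.05, -0.56 and -0.23 on R6/2 1 to 4. Every R6/2 array was under every WT array, and the third array of each genotype was its lowest. The difference was -0.61 ± 0.12 (SE, n = 4 per genotype; limma adjusted p = 0.0590). Wnt4 passed by limma with the replicate block (adjusted p = 0.0482), with probes well above background on all 8 arrays (0.0460), with normexp correction (0.0290), array weights (0.0374) or a trended prior (0.0312). It missed with quantile normalization (0.0555), with the median as scaling (0.130), without a filter on dim probes (0.143) and without any single array (0.0535 to 0.145). Its second probe read -2.73, -2.68, -3.06 and -2.68 on WT and -3.55, -3.14, -3.46 and -3.12 on R6/2 arrays, again without overlap, and its difference of -0.53 was close to that of the first (limma adjusted p = 0.0993).

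Wnt5b, a ligand that mostly acts outside the β-catenin branch, read -1.20, -1.20, -0.89 and -1.42 on WT and -1.59, -1.80, -1.62 and -1.93 on R6/2 arrays. Wnt9a, known from joint development, read -1.30, -1.20, -1.10 and -1.41 on WT and -1.89, -1.82, -2.12 and -1.47 on R6/2 arrays. Wnt7a, a ligand of neural progenitors that also signals to brain endothelium, read -1.48, -1.19, -1.44 and -1.19 on WT and -1.85, -1.65, -1.78 and -1.55 on R6/2 arrays. In these 3 genes the highest R6/2 array came close to the lowest WT array without crossing it. By limma the differences were -0.55 ± 0.13 for Wnt5b (adjusted p = 0.0778), -0.57 ± 0.14 for Wnt9a (adjusted p = 0.0907) and -0.38 ± 0.10 for Wnt7a (adjusted p = 0.120; SE, n = 4 per genotype), so none was called.

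In the other 11 tested ligands the genotypes overlapped, with differences from -0.73 for Wnt9b to 0.37 for Wnt10b and limma adjusted p-values of 0.360 or more. Wnt9b and Wnt6, both ligands of kidney development, had differences of -0.73 ± 0.49 and -0.66 ± 0.33 (SE, n = 4 per genotype), wide errors for differences of that size. Wnt7b, the close relative of Wnt7a, differed by -0.07 ± 0.09, and Wnt5a, the close relative of Wnt5b, by -0.17 ± 0.11. Whether such a pair differed in its response was not tested. Wnt1, the midbrain organiser ligand, had the narrowest WT spread of the ligands (SD 0.02) and a difference of -0.04 ± 0.06. A second Wnt1 probe was well above background on 0 of 8 arrays, so the reading of Wnt1 rests on 1 probe. The same holds for Wnt16, whose second probe was above it on 1 array. The rest were Wnt10a (-0.18), Wnt11 (-0.10), Wnt16 (-0.10), Wnt2 (0.06) and Wnt3 (0.16). Wnt2b, Wnt3a and Wnt8a were not tested: Wnt8a was well above background on 1 R6/2 array and Wnt2b and Wnt3a on 0 arrays.

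**Figure D2:**
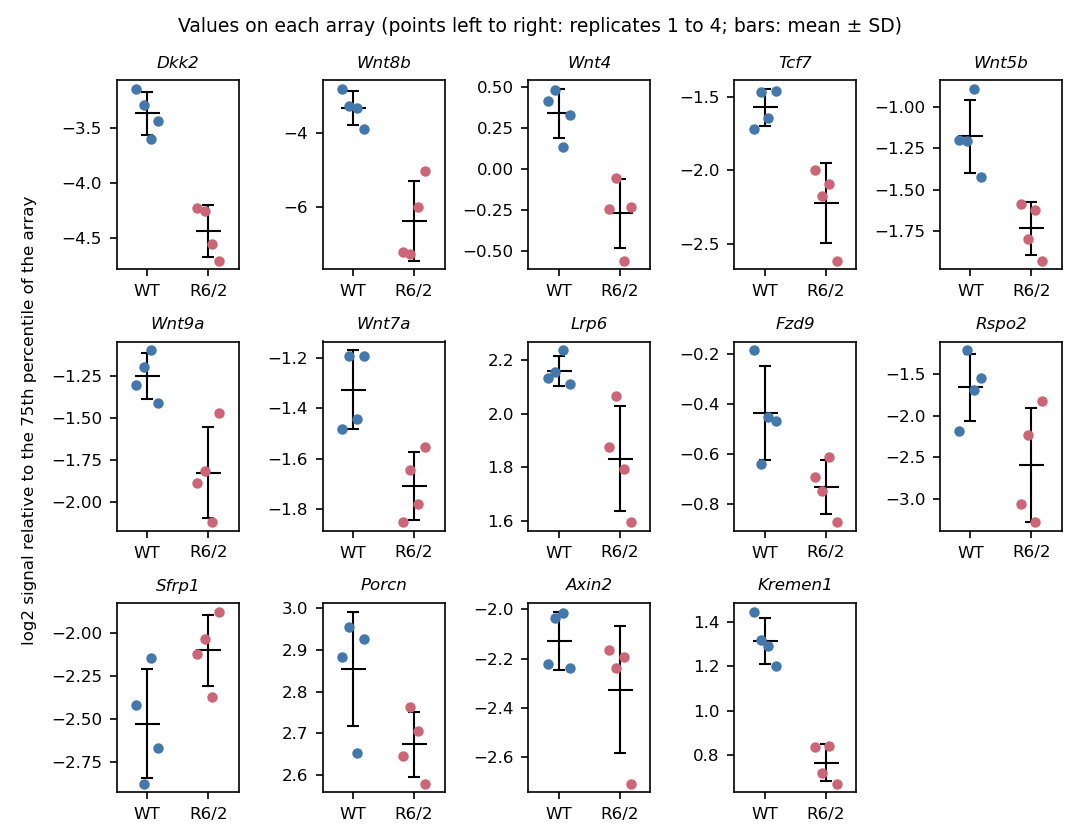
Log2 signal relative to the 75th percentile of each array for 13 Wnt genes and Kremen1 on WT (blue) and R6/2 (red) arrays, 1 point per array in replicate order, with mean ± SD (n = 4). The vertical scales differ between panels, which allows no comparison of levels between genes; in the panels of Dkk2, Wnt8b, Wnt4, Tcf7, Wnt5b, Wnt9a, Wnt7a, Lrp6 and Kremen1 the colours do not overlap.

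Of the 2 genes needed to release Wnt proteins, limma called 0, also at an unadjusted p under 0.05. Porcn, the enzyme that attaches the lipid to Wnt proteins, read 2.88, 2.96, 2.65 and 2.93 on WT and 2.65, 2.76, 2.71 and 2.58 on R6/2 arrays. WT 3 lay among the R6/2 arrays, and the difference was -0.18 ± 0.09 (SE, n = 4 per genotype; limma adjusted p = 0.343). Wls, which carries Wnt proteins to the cell surface, differed by 0.18 ± 0.12 (limma adjusted p = 0.474).

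All 10 frizzled receptors were tested and limma called 0, with 2 at an unadjusted p under 0.05. Of all tested genes 18.9% had such a p, the share to set beside this count and those of the role groups below. The differences ran from -0.63 for Fzd10 to 0.14 for Fzd3, with a median of -0.08. Fzd9, a receptor of neural progenitors that had the smallest p, read -0.18, -0.64, -0.45 and -0.47 on WT and -0.69, -0.75, -0.61 and -0.87 on R6/2 arrays. Only WT 2 reached into the R6/2 range, and the difference was -0.30 ± 0.11 (SE, n = 4 per genotype; limma adjusted p = 0.220). Fzd10 had a larger difference (-0.63 ± 0.25) with a larger error (limma adjusted p = 0.259). The other 8 receptors, Fzd1 to Fzd8, had differences of at most 0.14 in size, with SE of 0.08 to 0.21.

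Both Lrp co-receptors were tested and limma called 0, with 1 at an unadjusted p under 0.05. Lrp6 read 2.14, 2.16, 2.24 and 2.11 on WT and 1.88, 2.07, 1.79 and 1.59 on R6/2 arrays. WT spanned a narrow range (SD 0.05), R6/2 a wider one beneath it (SD 0.20), and the difference was -0.33 ± 0.10 (SE, n = 4 per genotype; limma adjusted p = 0.163). On a second, dimmer Lrp6 probe it was -0.14 ± 0.09, with overlap. Lrp5, the closest relative of Lrp6, differed by -0.06 ± 0.06 (limma adjusted p = 0.665).

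Dkk2 was the Wnt gene with the smallest p. Dkk proteins other than Dkk3 are secreted, bind Lrp5 and Lrp6 and, with Kremen receptors, can take them off the cell surface. Dkk2 read -3.14, -3.29, -3.60 and -3.44 on WT 1 to 4 and -4.22, -4.25, -4.55 and -4.71 on R6/2 1 to 4. All 8 arrays were well above background, and the gap between the genotypes was wider than the range within either. The WT mean was -3.37 ± 0.20 and the R6/2 mean -4.43 ± 0.23 (SD, n = 4). Dkk2 was thus 2.09-fold lower in R6/2, by a fitted log2 value of -1.07 ± 0.14 (SE, 4 arrays each; limma adjusted p = 0.0190). The call held with the replicate block (limma adjusted p = 0.0434). It was lost without WT 2 (limma adjusted p = 0.0654), without WT 4 (0.0612) or without R6/2 3 (0.0661), while the difference stayed between -1.14 and -0.98. With normexp background correction, which adds an offset of 50 to every spot, the difference shrank to -0.38 and the call was kept.

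Dkk3, a divergent relative that does not act on Lrp6 as the other Dkk proteins do, differed by -0.14 ± 0.14 (SE, n = 4 per genotype; limma adjusted p = 0.668). Dkk1 and Dkk4 were not tested. Dkk4 was well above background on 0 arrays and Dkk1 on 1 R6/2 array.

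Sfrp proteins, Frzb and Wif1 bind Wnt proteins outside the cell. Of these 6 genes limma called 0, with 1 at an unadjusted p under 0.05, and 5 of the differences were negative. The exception was Sfrp1, the Wnt gene with the largest positive difference. It read -2.42, -2.88, -2.14 and -2.67 on WT and -2.12, -2.03, -2.37 and -1.87 on R6/2 arrays. WT 3 and R6/2 3 crossed, and the difference was 0.43 ± 0.17 (SE, n = 4 per genotype; limma adjusted p = 0.256). Frzb followed with -0.42 ± 0.28, and Wif1, Sfrp2, Sfrp4 and Sfrp5 lay between -0.16 and -0.02.

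Rspo proteins strengthen Wnt signals through Lgr receptors and the ligases Znrf3 and Rnf43. Of the 3 genes, 2 were tested and limma called 0, with 1 at an unadjusted p under 0.05. Rspo2 read -2.18, -1.21, -1.69 and -1.55 on WT and -3.06, -2.23, -3.28 and -1.82 on R6/2 arrays. WT 1 and R6/2 4 overlapped, both genotypes varied widely (SD 0.41 and 0.69), and the difference was -0.94 ± 0.35 (SE, n = 4 per genotype; limma adjusted p = 0.222). Rspo3 showed 0.00 ± 0.23, and Rspo4 was well above background on 0 arrays.

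The 4 Tcf and Lef transcription factors, which bind DNA together with β-catenin, all had negative differences (median -0.62). By limma 0 were called, with 1 at an unadjusted p under 0.05 on its brightest probe. Tcf7 read -1.72, -1.47, -1.64 and -1.46 on WT and -2.00, -2.17, -2.09 and -2.61 on R6/2 arrays. No R6/2 array reached the WT range, R6/2 4 was the lowest, and the difference was -0.65 ± 0.14 (SE, n = 4 per genotype; limma adjusted p = 0.0679). Tcf7 passed with normexp correction (limma adjusted p = 0.0297), with array weights (0.0400) and with a trended prior (0.0455), and missed with the replicate block (0.117). Tcf7l2 differed by -0.78 ± 0.43 and Lef1 by -0.59 ± 0.28, both resting largely on WT 1, as shown further on. Tcf7l1 differed by -0.13 ± 0.15.

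Axin2, a target of β-catenin that feeds back on the pathway, read -2.22, -2.04, -2.02 and -2.24 on WT and -2.16, -2.24, -2.19 and -2.71 on R6/2 arrays. R6/2 4 stood well under the other 7 arrays, which overlapped. The difference was -0.20 ± 0.13 (SE, n = 4 per genotype; limma adjusted p = 0.501), and on the dimmer Axin2 probe -0.34 ± 0.14 (limma adjusted p = 0.277). Nkd1 and Nkd2, which bind the Dishevelled proteins and dampen the signal, differed by 0.00 ± 0.22 and -0.13 ± 0.13. Of these 3 feedback genes limma called 0, and on their brightest probes 0 had an unadjusted p under 0.05. The dimmer Axin2 probe had an unadjusted limma p of 0.0439.

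The wider pathway was read from a list of 71 further genes of the β-catenin destruction complex, Dishevelled, the co-activators, the Lgr, Ror and Ryk receptors and the polarity branch. Of the 69 tested, 33 had negative and 36 positive differences (median 0.04). By limma 1 was called lower and 0 higher, against 1.46% and 0.47% of all tested genes. An unadjusted p under 0.05 was seen for 13 of the 69, against 18.9% of all genes. The 1 called was Kremen1, the cell-surface partner of Dkk proteins. Kremen1 read 1.45, 1.32, 1.29 and 1.20 on WT and 0.83, 0.72, 0.84 and 0.67 on R6/2 arrays, with the genotypes well apart. It was 1.46-fold lower in R6/2, a difference of -0.55 ± 0.08 (SE, n = 4 per genotype; limma adjusted p = 0.0246). The call held without WT 3 (limma adjusted p = 0.0388) and was lost without any other single array (up to 0.0853), with the median as scaling (0.0778) and for the mean of its probes (difference -0.35, adjusted p = 0.0923).

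For 11 of the Wnt genes more than 1 probe was tested, which gives a second reading within the same samples. Both Wnt4 probes gave similar negative differences. The dimmer Tcf7 probe differed by -0.84 ± 0.42, but it read -3.14 on WT 1 and -5.02 to -4.58 on the other WT arrays, and without WT 1 its difference was -0.43 ± 0.25. On the brighter Tcf7 probe it was -0.69 ± 0.15 without WT 1. The probes of Fzd5 and of Fzd7 differed in sign, each within 1 SE of 0. On the dimmer Nkd1 probe R6/2 3 read -1.67 and the other 7 arrays -3.89 to -3.51, whereas the brighter Nkd1 probe read 1.09 there, inside the range of the others. The third Tcf7l2 probe read -1.94, -1.94, -1.88 and -2.17 on WT and -2.16, -2.38, -2.24 and -2.24 on R6/2 arrays, an overlap by R6/2 1 alone and a difference of -0.27 ± 0.09, without the high WT 1 of the other Tcf7l2 probes.

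**Figure D3:**
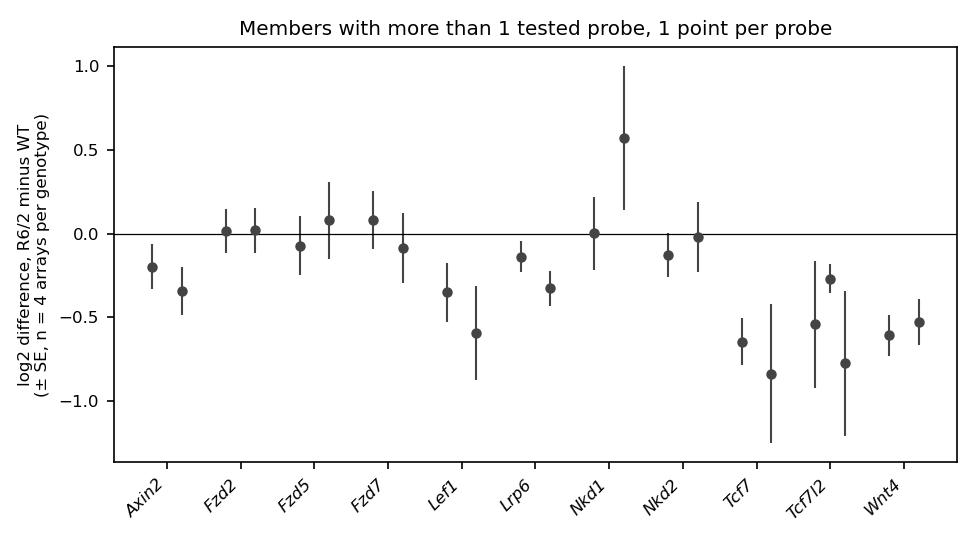
Log2 difference, R6/2 minus WT (± SE, 4 arrays per genotype), of each tested probe of the 11 Wnt genes with more than 1 tested probe. The 2 Wnt4 probes lie at -0.61 and -0.53, while the 2 Nkd1 probes lie at 0.00 and 0.57 and the 3 Tcf7l2 probes between -0.78 and -0.27.

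Several differences among the Wnt genes rested in large part on a single WT array. The genes in this paragraph and the next were chosen after their values were seen. On WT 1 the value exceeded that of every other array by more than 0.5 log2 units for 4 of the 47 Wnt genes (8.51%), against 0.939% of all tested genes. They were Lef1, Tcf7l2, Fzd10 and Wnt9b. This pattern was picked out after values were seen, so neither the 8.51% nor the share of markers below can be set against the 0.939%. Tcf7l2 read 0.04 on WT 1, from -2.02 to -1.64 on the other WT arrays and from -2.55 to -1.71 on R6/2 arrays. Lef1 read 1.41 on WT 1, 0.16 to 0.30 on the other WT and -0.36 to 0.20 on R6/2 arrays. Without WT 1 the differences moved from -0.78 to -0.32 for Tcf7l2, from -0.59 to -0.29 for Lef1, from -0.63 to -0.43 for Fzd10, from -0.73 to -0.18 for Wnt9b and from 0.16 to 0.39 for Wnt3. By limma none of the 5 was called with or without it. Of 10 markers of thalamus and habenula, which lie near the striatum, 4 (Rora, Prkcd, Slc17a6 and Lhx9, 40%) also had WT 1 on top by this margin. Prkcd read 2.28 on WT 1, -0.76 to 0.15 on the other WT arrays and -1.63 to -1.40 on R6/2 arrays. Other genes of the list did not have this pattern: WT 1 was the lowest WT array for Nr4a2 (0.55 against 2.52 to 3.11), Pou4f1, Tac2 and Calb2, and Pou4f1 differed by 0.80 with every R6/2 array above WT (limma adjusted p = 0.0851). The summed level of the whole list was 10.97 to 13.11 on WT and 6.10 to 9.22 on R6/2 arrays. All 10 were measured and limma called 0 of them, with 6 at an unadjusted p under 0.05. Their part in the result was not tested.

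**Figure D4:**
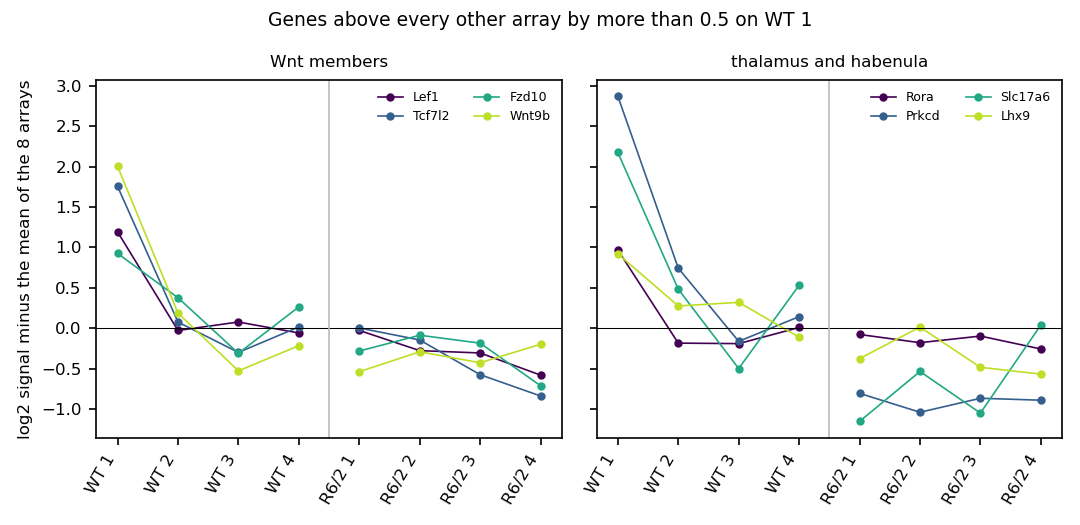
Log2 signal minus the mean of the 8 arrays for the 4 Wnt genes (left) and the 4 thalamus and habenula markers (right) that were higher on WT 1 than on every other array by more than 0.5. The lines peak on WT 1, and some, such as that of Slc17a6 (log2 signal -2.77 to -1.09), also vary widely over the remaining arrays.

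A second set of Wnt genes varied among the R6/2 arrays in the same order as the mean log2 level of cortical neuron markers. The mean of the thalamus and habenula markers followed this order too, with -1.70, -2.01, -2.04 and -2.08 on R6/2 4, 2, 1 and 3. For Dkk3, Wnt10a, Rspo3, Wnt9a, Rspo2, Frzb and Sfrp1, 7 of the 47 Wnt genes (14.9%), R6/2 4 was highest, then R6/2 2, R6/2 1 and R6/2 3, an order shown by 6.55% of all tested genes. Of the 12 markers of cortical and hippocampal glutamatergic neurons 6 had this order (among them Tbr1, Neurod2, Slc17a7, Neurod6 and Fezf2). The order was that of the mean of these same 12 markers, so their count cannot be set against the 6.55%. Nor can the 14.9% of the Wnt genes, as this pattern was picked out after their values were seen. Dkk3 read 4.07, 3.96, 3.81 and 3.46 on R6/2 4, 2, 1 and 3, and Fezf2 read -0.92, -1.60, -1.89 and -2.32. The summed level of the 12 markers was 27.3 to 35.7 on WT and 24.7 to 32.6 on R6/2 arrays, all 12 were measured, and 1 was called lower. The part of cells of either list in the values of the 7 Wnt genes was not tested. Choroid plexus markers, summed, varied within both genotypes (57.3 to 249 on WT, 47.9 to 192 on R6/2), and limma called 0 of the 10, also at an unadjusted p under 0.05.

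**Figure D5:**
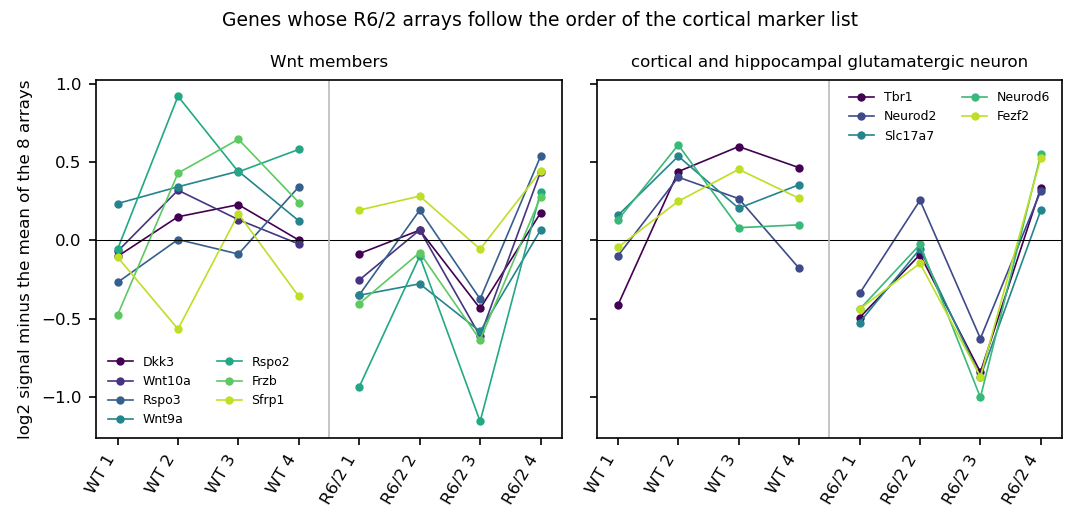
Log2 signal minus the mean of the 8 arrays for the 7 Wnt genes (left) and 5 of the cortical and hippocampal markers (right) whose R6/2 arrays follow the order 4, 2, 1, 3 from high to low. On the WT arrays the same genes do not share an order.

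In the authors' deposited table, 0 of the Wnt probes had an adjusted p under 0.05, and the lowest was 0.0729, for Dkk2. The authors' deposited table gives a fold of 2.08 down for Dkk2, and one of 8.30 down for Wnt8b with an adjusted p of 0.119.

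The promoters of both called genes are given, as both were lower in R6/2, from the RefSeq-based table of build GRCm38.p6 (which held 36 of the 53 Wnt genes, with 44 promoters). Each is the 250 bases before the start of transcription, on the + strand, at chr3:132085042-132085291 for Dkk2 and chr19:44493222-44493471 for Wnt8b. Capitals mark CTTTG, the core of the sequence that Tcf and Lef factors bind, searched on both strands (as CAAAG on the other), with no other motif searched.
Dkk2: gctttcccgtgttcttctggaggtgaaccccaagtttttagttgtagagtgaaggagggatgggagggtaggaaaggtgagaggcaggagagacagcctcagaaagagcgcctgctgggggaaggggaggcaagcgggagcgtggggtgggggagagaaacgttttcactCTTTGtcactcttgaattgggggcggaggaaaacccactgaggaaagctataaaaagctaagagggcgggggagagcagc
Wnt8b: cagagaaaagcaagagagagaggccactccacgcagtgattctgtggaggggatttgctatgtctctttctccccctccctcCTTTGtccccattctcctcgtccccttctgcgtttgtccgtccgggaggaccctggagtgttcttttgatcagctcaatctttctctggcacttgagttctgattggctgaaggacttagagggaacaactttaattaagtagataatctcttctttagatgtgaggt
Each held 1 match. Of all 32851 promoters of this length 48.6% held at least 1, and of the 44 promoters of Wnt genes 22 did. A match is only the presence of these letters.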

How the data were processed

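Striatal RNA of 4 R6/2 and 4 WT samples was measured on 1-colour Agilent arrays. Per the file headers, the scanner intensities came from Feature Extraction 10.7.3.1, and the authors' processed signal, also an intensity, was used. The authors also deposited log2 values, which were found to equal the log2 processed signal minus 1 constant per array, with p-values and fold ratios of an unpaired test with Benjamini-Hochberg correction, per the file headers. Here, log2 of the processed signal minus log2 of the array's 75th percentile over non-control spots was tested with limma 3.58.1 (R 4.3.3), without covariates. Outlier spots were left out, the spots of a probe averaged, and probes well above background on at least 4 of 8 arrays tested. A gene was represented by its brightest tested probe and called at an adjusted p under 0.05. The procedure was tested on simulated data. Of the 55681 probes, 26762 were named by accession and 5056 by gene number in a GRCm38.p6 table, 2280 kept the file's symbol and 21583 had none.

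Values of every array are given for genes called, genes without overlap between genotypes and the gene of smallest p in each role group, and for pathway genes called. The genes and lists were chosen with earlier results of these data known. Same-numbered samples, which also share a slide column, deviated together (correlations over probes of 0.22, 0.18, 0.36 and 0.13), so replicate number was used as a block in an alternative. Other alternatives changed the background correction, scaling, filter, weights, prior, probe choice, source of values, test and arrays included. Slide and scan had 1 level each and gave no block. A marker gene kept in the counts is not reported here.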

Additional observations from a re-analysis of the deposited data

Results flagged for a closer look

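In 3 of 46 groups of 4 arrays (23 named genes, each genotype) 1 array lay apart from the others by more than Dixon's critical value for the gap over the range, and chance marks about 1 in 20 groups. Axin2 was lowest on R6/2 4 (gap over range 0.868). Lef1 was highest on WT 1 (0.892), as was Wnt3, a ligand of early development, which read -1.02 there and -1.98 to -1.85 on the other WT arrays (0.867). Lef1 and Wnt3 were among the genes chosen after their values were seen, so 3 of 46 cannot be set against the 1 in 20.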

How the results depend on the processing

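The counts of called genes depended on the processing, while the differences of Dkk2, Wnt8b, Wnt4, Tcf7 and Kremen1 stayed negative under every alternative run for them. Of the Wnt genes, 2 were called here and 4 with normexp correction (4 probes), with array weights (5 probes) and with a trended prior (4 probes), 1 with quantile normalization, and 0 without a filter on dim probes or with the unpaired test. With only probes well above background on all 8 arrays 2 were called again, but these were Dkk2 and Wnt4, as Wnt8b was no longer tested. Leaving out 1 array gave 0 to 2 Wnt genes and 0 to 2 probes, 0 to 1 pathway genes and 80 to 330 of all genes. Of the pathway genes, 1 was called here, 2 with normexp, 3 with a trended prior, and 0 with the median as scaling, without the filter or for the mean of the probes. Of all genes, 345 were called here, 660 with normexp, 153 with the median, 83 without the filter, 703 with weights, 678 with the trend and 180 with the unpaired test. With the replicate block 185 of all genes and 2 Wnt genes were called (Dkk2 and Wnt4 in place of Wnt8b), and it changed no other call among the named genes. Dkk2 lost its call with quantile normalization (adjusted p = 0.0609), without the filter (0.0535) and with the unpaired test (0.0514), and Wnt8b without the filter (0.0852) and with the unpaired test (0.0798). The sign of Rspo3 turned with array weights (-0.069) and without 1 array (-0.17 to 0.13). Apart from the filter, which changes the number of probes tested, the cause was not tested. Dkk2 and Wnt8b were dim, and their size depended most on the background correction.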
